A study of Mus musculus with 12 samples.

Results

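The guidance ligands and receptors are the secreted or membrane-bound cues of 4 signalling systems and the surface proteins that read them. Members were taken by gene symbol, as every gene named as a semaphorin, plexin, neuropilin, Eph receptor, ephrin, Slit, Robo, netrin or Unc5 receptor. Only probe sets that carry a single gene symbol were used, so a gene found only on probe sets with several symbols is not included. The rule used no measured value and found 56 genes among the 12393 genes tested. They comprise 31 ligands and 25 receptors in 12 families. The ligands are 3 netrins, 3 Slits, 5 secreted (class 3) semaphorins, 12 membrane-attached semaphorins, 5 ephrin-As and 3 ephrin-Bs. The receptors are 2 Unc5 proteins, 3 Robos, 2 neuropilins, 7 plexins, 8 EphA and 3 EphB kinases.

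These proteins were first known for steering growing axons and migrating cells. Netrins attract through Dcc and repel through Unc5 receptors, and Slits repel through Robo receptors. Class 3 semaphorins bind neuropilins that signal through plexins, whereas most membrane semaphorins bind plexins directly. Ephrins and Eph kinases sit on opposing cell surfaces and signal in both directions. In the kidney the best known role is that of Slit2 and Robo2, which restrict the site at which the ureteric bud leaves the nephric duct, and several semaphorins, plexins and ephrins act in the branching of the bud and in the growth of the renal vessels.

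Expression was measured on 12 Affymetrix 3′ arrays of fetal C57BL/6 mouse kidneys grown in culture, 6 labelled wildtype and 6 labelled as carrying activated beta-catenin, the transcriptional partner of Tcf/Lef factors in the canonical Wnt pathway. All pregnant mothers, controls included, were injected intraperitoneally with tamoxifen (2 mg for each 40 g of weight) when the embryos were 10.5 days old. The kidneys were dissected at the same embryonic age and cultured for 3 to 4 days on Transwell membranes in serum-free medium. The labels describe the activated kidneys as bearing tumors and the wildtype kidneys as normal. The beta-catenin allele, the recombinase and the cells in which it was active are not given in the sources used here, nor is the number of kidneys or embryos per array. The p-values therefore measure the spread between arrays, which may be partly technical. The numbers in the sample titles form 2 separate runs. Wildtype 1 to 3 and activated 1 to 3 make up the lower run, and wildtype 4 to 6 and activated 4 to 6 the higher run. The labels do not give what separates them. The question of the design is whether activated beta-catenin changes expression. For the guidance genes it was asked over all 12 arrays, within each run of 3 against 3, and as a difference between the runs.

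Levels are given as quantile-normalised log2(intensity + 16), and differences as log2 differences, activated minus wildtype or higher minus lower run. A gene was called when its adjusted p, by limma with Benjamini-Hochberg adjustment over all 12393 genes, was below 0.05. The brightest of 27 bacterial control probe sets reached a level of 5.49. This mark comes from the deposited values before quantile normalisation, which left the controls out. Levels close to it are therefore not firmly placed above or below it. By that mark 29 of the 56 members were above the control signal on all 12 arrays, 23 on some of them and 4 (Efna5, Epha6, Ntn4 and Sema6b) on none. The members above it on every array comprised 14 of the 31 ligands and 15 of the 25 receptors. Intensities carry no read depth, and the number of arrays limits the precision. Differences of members that lie under the control signal have no reliable size.

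The arrays also differed in ways that the genotype label does not give. Fetal globin and other erythroid markers had mean levels of 8.08 and 7.91 in the wildtype and activated arrays of the lower run, against 6.57 and 6.49 in the higher run. Macrophage markers had 6.50 and 6.39 against 7.14 and 7.17. The 5′ to 3′ ratio of the control transcripts, a sign of RNA quality, also differed. It was highest on wildtype 2, wildtype 5, activated 2 and activated 6, with log2 ratios from -1.86 to -0.26. The other arrays had -2.41 to -1.99. Wildtype 5 (-1.86) lay close to activated 1 (-1.99), so the ratio alone does not set these 4 arrays apart. Markers of nephron progenitors and stroma, the cell types of the cultured kidney, were above the control signal on average. The 8 ureteric bud markers were also above it on average. Their mean levels were 7.58 and 7.34 in the wildtype and activated arrays of the lower run and 7.67 and 7.46 in the higher run. Of these 8, the 3 genes Ret, Wnt9b and Hoxb7 lay below the control signal on all arrays. In a whole kidney, fewer cells of a type and less RNA per cell cannot be told apart.

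**Figure D1:**
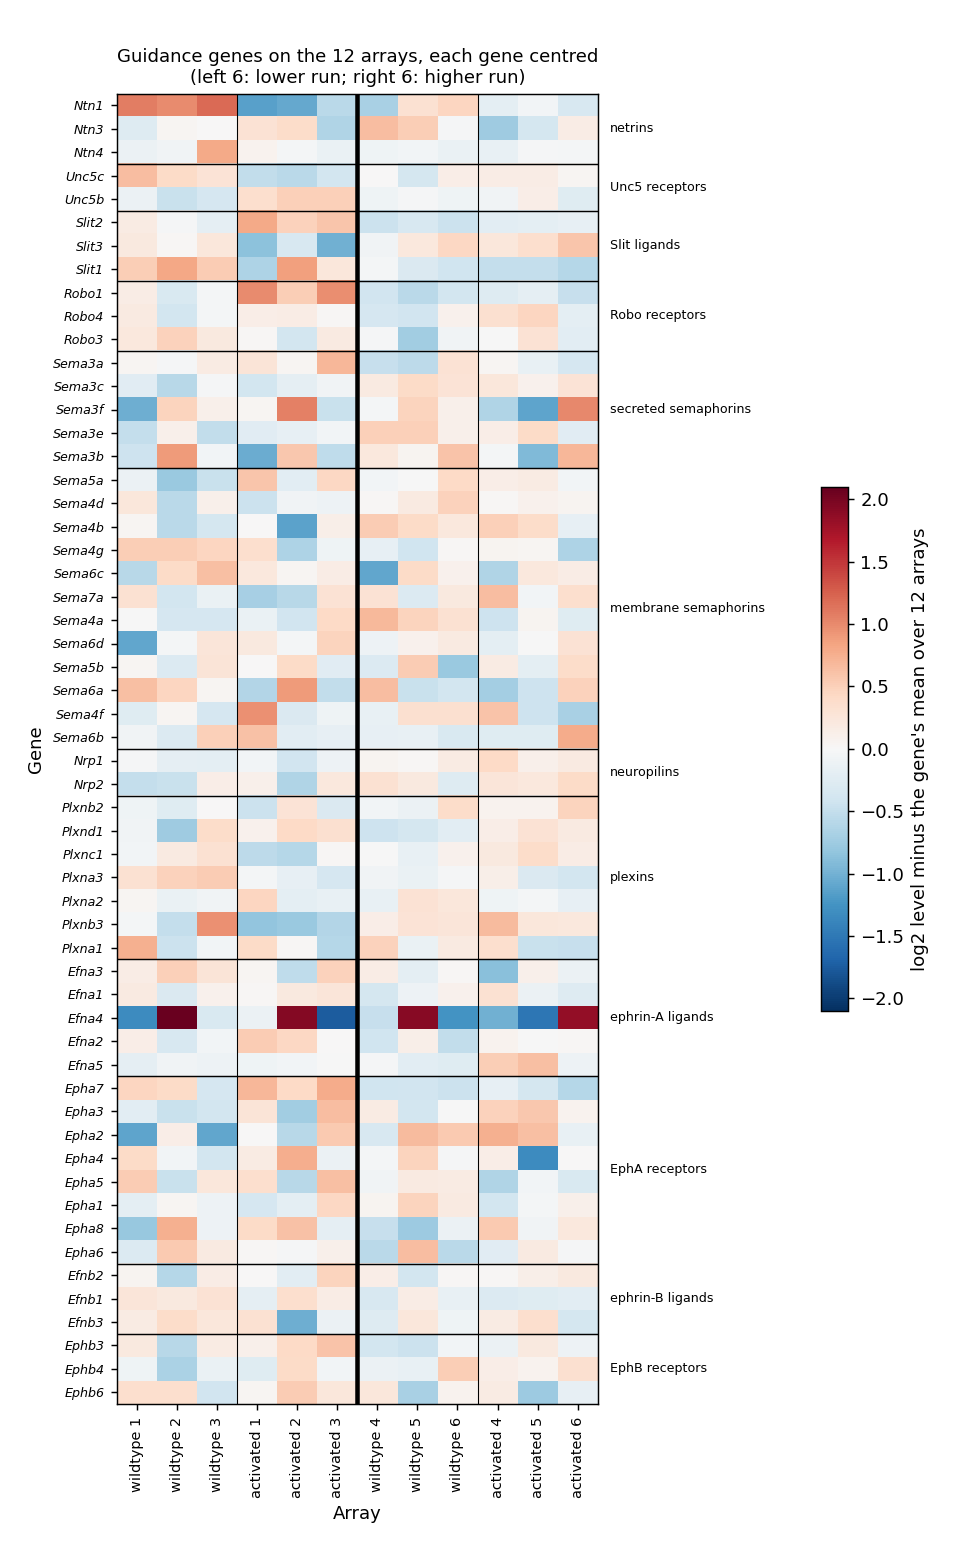
Level of each of the 56 guidance genes (rows, grouped by family) on each of the 12 arrays (columns; the lower run is left of the thick line), as log2(intensity + 16) minus the mean of that gene over the 12 arrays. Ntn1 is high on wildtype 1 to 3 and low on activated 1 to 3, Robo1 and Slit2 are high on activated 1 to 3, and Efna4 takes a high value on 4 arrays of both genotypes.

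Over all 12 arrays no guidance gene was called between activated and wildtype kidneys. Calls were rare for the whole array in this comparison: 3 of 12393 genes, or 0.0242%, were called by limma. The members with an unadjusted p below 0.05 numbered 5 (8.93%), against 6.15% of all genes. The 5 were Ntn1, Plxnd1, Unc5b, Slit2 and Plxna3, of which 3 were higher and 2 lower in the activated kidneys. Positive differences were found for 27 of the 56 members, and the median difference of the members was -0.01, as was that of all genes. The median size of the difference, regardless of sign, was 0.218 over the members and 0.129 over all genes. With the run as a term in the model, 13 genes (0.105%) were called and still no member. An unadjusted p below 0.05 was then found for 8 members (14.3%, 6 higher and 2 lower) against 8.79% of all genes. The difference of each gene was the same as without the term, and the SE was smaller for 41 members and larger for 15. For Slit2 the difference of 0.42 had an SE of 0.19 without the run term (adjusted p = 0.790, limma) and 0.10 with it (adjusted p = 0.121). No member separated all 6 activated from all 6 wildtype arrays, and 0.5% of all genes did.

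Within the lower run, netrin-1 and its receptor Unc5c fell in the activated kidneys. These were the 2 called members, where 74 of all genes (0.597%) were called. At an unadjusted p below 0.05 there were 9 members (16.1%, 4 higher and 5 lower) against 7.07% of all genes. Within the higher run no member was called by limma, where 1 gene (0.00807%) was. At an unadjusted p below 0.05 there were 4 (7.14%, 2 higher and 2 lower) against 6.35% of all genes. Positive differences numbered 32 of 56 in each run, with medians of 0.06 and 0.07, where all genes had -0.03 and 0.00. The median size of the difference was 0.297 (lower run) and 0.211 (higher run), and for all genes 0.178 and 0.149. The genotype difference was larger in the lower than in the higher run for 31 of the 56 members (55.4%) and for 56.4% of all genes. It had opposite signs in the runs for 46.4% of the members and 44.7% of all genes.

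**Figure D2:**
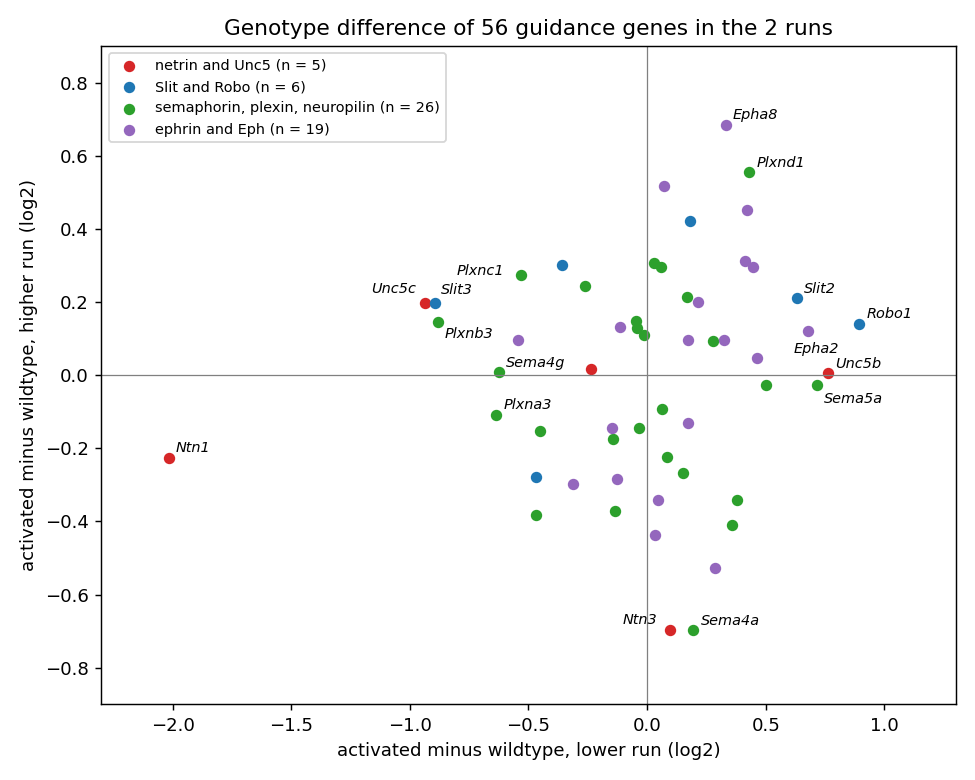
Difference between activated and wildtype kidneys (log2) for the lower run (x axis) against the higher run (y axis) for the 56 guidance genes, each point being 1 gene coloured by its signalling system. Ntn1 lies far to the left at -2.02 (lower run) and -0.23 (higher run), and most of the other genes lie between -1 and 1 on both axes.

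The genes on which the results turn are Ntn1, Unc5c, Slit2 and Robo1. The RefSeq promoter table has 49 of the 56 members, Unc5c, Slit2 and Robo1 among them and Ntn1 not. Beta-catenin acts on promoters through Tcf/Lef factors, and Unc5c, Slit2 and Robo1 hold 5 of the calls given below. The calls of Slit2 and Robo1 are between the runs in the activated kidneys, not between the genotypes. The 250 bases upstream of 1 RefSeq transcript start of each of these 3 genes are shown. They lie on the plus strand of GRCm38.p6 at chr3:141465314-141465563 (Unc5c), chr5:47982905-47983154 (Slit2) and chr16:72662899-72663148 (Robo1). The start used is the 5′ end of the gene for Unc5c, but lies inside the annotated gene for the others, 1864 bases from its 5′ end for Slit2 and 635631 bases for Robo1. Which start the cultured kidneys use was not measured. Capitals mark the core letters CTTTG of the Tcf/Lef motif, searched on both strands (CTTTG or CAAAG).
Unc5c: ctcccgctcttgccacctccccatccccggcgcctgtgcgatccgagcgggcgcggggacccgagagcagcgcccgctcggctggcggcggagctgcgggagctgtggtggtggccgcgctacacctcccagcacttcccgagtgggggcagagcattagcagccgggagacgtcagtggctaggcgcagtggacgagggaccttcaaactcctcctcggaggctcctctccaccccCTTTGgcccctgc
Slit2: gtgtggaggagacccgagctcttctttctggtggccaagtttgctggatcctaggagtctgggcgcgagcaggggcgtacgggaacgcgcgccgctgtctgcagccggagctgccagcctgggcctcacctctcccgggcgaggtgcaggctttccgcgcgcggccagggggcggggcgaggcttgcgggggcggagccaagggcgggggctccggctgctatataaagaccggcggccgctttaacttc
Robo1: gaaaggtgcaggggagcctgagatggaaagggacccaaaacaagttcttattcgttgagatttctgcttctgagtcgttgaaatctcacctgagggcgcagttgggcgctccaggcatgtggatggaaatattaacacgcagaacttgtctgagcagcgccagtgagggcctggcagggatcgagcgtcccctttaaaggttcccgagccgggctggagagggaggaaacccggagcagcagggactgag
The core was found once in the Unc5c sequence, 13 bases before the start, and in neither of the other sequences shown. Of all windows of 250 bases 48.6% hold it. Epha7 and Plxnb3, also called between the runs in the activated kidneys, were searched too. Plxnb3 held the core once, 161 bases before the start, and Epha7 did not hold it. The search for the core was chosen after the values were seen. The GC share of these sequences was 71.2% (Unc5c), 69.6% (Slit2) and 56% (Robo1), with 23, 25 and 11 CpG dinucleotides. The longer motif, the core CTTTG followed by AA, AT, TA or TT, was searched on both strands in windows from 250 bases before to 50 after each start. At least 1 match was found for 6 of the 49 members (12.2%), namely Efna4, Epha2, Nrp2, Sema3c, Sema3e and Sema6d, and for 18.9% of the 27025 genes in the table. Counted by window the shares were 9.68% for the members and 16.9% for all windows. The median GC share was 64.4% over the member windows and 52.4% over all. None of the 6 genes that hold a match was called in any comparison. A match in letters is a description of the sequence only.

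Netrin-1 is a secreted, laminin-related cue, and Ntn1 had the largest genotype difference of the 56 members in the lower run and over the 12 arrays. In the lower run its levels were 8.80, 8.72 and 8.91 in wildtype 1 to 3 and 6.57, 6.65 and 7.16 in activated 1 to 3. All 3 activated arrays lay below all 3 wildtype arrays by more than the range within either group. Ntn1 fell by 2.02 on the log2 scale (SE 0.22, adjusted p = 0.00239, limma), a level 4.05-fold lower in the activated kidneys. In the higher run the levels were 7.04, 8.04 and 8.18 in wildtype 4 to 6 and 7.52, 7.67 and 7.39 in activated 4 to 6. There the groups overlapped, with a difference of -0.23 (SE 0.28, adjusted p = 0.934, limma). Wildtype 4 lay below all 3 activated arrays of its run, and the other wildtype arrays of the run lay above all 3. Over the 12 arrays the difference was -1.12 (SE 0.30, adjusted p = 0.345, limma).

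The Ntn1 value depended on the array design as well as on the arrays. The call in the lower run was kept when any 1 of its 6 arrays was left out, with differences from -2.20 to -1.91. It was lost, with a difference of -1.08 and an adjusted p of 0.323 (limma), when the probe sets of each gene were averaged. The second Ntn1 probe set, with a mean level of 5.12, lay under the control signal and differed by -0.14 in the lower run. With the run as a term, the difference of -1.12 was called only when wildtype 4 was left out, at -1.38 (adjusted p = 0.0464, limma).

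Unc5c, a repulsive netrin receptor, was also lower in the activated kidneys of the lower run. Its levels were 10.08, 9.82 and 9.71 in wildtype 1 to 3 and 8.90, 8.85 and 9.04 in activated 1 to 3, so the groups lay apart. Unc5c fell by 0.94 (SE 0.15, adjusted p = 0.0229, limma), a level 1.91-fold lower. In the higher run the wildtype arrays had 9.44, 9.05 and 9.55 and the activated arrays 9.58, 9.58 and 9.47. The groups overlapped and the difference was 0.20 (SE 0.14, adjusted p = 0.884, limma). The genotype difference itself changed between the runs, by 1.13 (SE 0.20, adjusted p = 0.0278, limma), and Unc5c was the only called member of this comparison. A second Unc5c probe set, mean level 8.01, gave -0.84 in the lower run and a change of 0.91 between runs.

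The Unc5c calls were close to the threshold. In the lower run the call was kept without activated 2 (adjusted p = 0.0340) and lost without wildtype 1, 2 or 3 or activated 1 or 3 (adjusted p from 0.0712 to 0.150, differences from -1.02 to -0.83, limma). It was also lost with the arrays centred on their medians in place of quantile normalisation (adjusted p = 0.0694, limma). The same held with the probe sets averaged (adjusted p = 0.0632, limma) and without the variance trend. The change between runs was kept without wildtype 3, wildtype 6, activated 2 or activated 6. It was lost without any 1 of the other 8 arrays, with values from 0.98 to 1.19 and adjusted p from 0.0508 to 0.0984 (limma). Median centring, averaged probe sets and a fit without the variance trend lost it too. It passed in 9 of 20 alternatives.

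For the test of the difference between runs, 41 genes (0.331%) were called, Unc5c alone among the members. At an unadjusted p below 0.05 there were 10 members (17.9%, 5 positive and 5 negative) against 6.11% of all genes. Ntn1 had the larger change between runs, 1.79 (SE 0.37), with an adjusted p of 0.0609 (limma). The other 8 were Slit3, Plxnb3 and Plxnc1 with positive values and Robo1, Sema4a, Unc5b, Sema5a and Slit2 with negative ones.

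Stromal and nephron progenitor markers moved with Ntn1 and Unc5c in the lower run. The mean level of the 7 measured stromal markers was 10.05 in the wildtype and 9.40 in the activated arrays of the lower run, and 9.59 and 9.65 in the higher run. By array it was 9.91 to 10.13 in wildtype 1 to 3, 9.24 to 9.50 in activated 1 to 3, 9.52 to 9.65 in wildtype 4 to 6 and 9.56 to 9.73 in activated 4 to 6. Foxd1, Meis2 and Aldh1a2 among them fell in the lower run. The 7 measured progenitor markers had mean levels of 8.09 and 6.71 in the lower run and 7.98 and 7.65 in the higher run, and Six2, Meox1 and Uncx fell in the lower run. Of the 12 measured neural markers 6 had positive and 6 negative differences in the lower run, from -3.41 to 1.62 with a median of 0.05, and the neuronal genes Stmn2 and Dcx were the 2 called, both lower. The part of these cell types in the netrin and Unc5 values was not tested.

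The other netrins and the other Unc5 receptor had other patterns. Ntn3 was above the control signal on 1 array and Ntn4 on none, and neither was called for genotype (adjusted p = 0.777 for Ntn3 in the higher run, limma). Unc5b, a netrin receptor of endothelial and epithelial cells, had levels of 6.85, 6.51 and 6.64 in wildtype 1 to 3 and 7.33, 7.48 and 7.48 in activated 1 to 3. These groups lay apart in the direction opposite to Unc5c. The difference of 0.76 (SE 0.22) did not pass the test (adjusted p = 0.310, limma), and in the higher run it was 0.01.

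**Figure D3:**
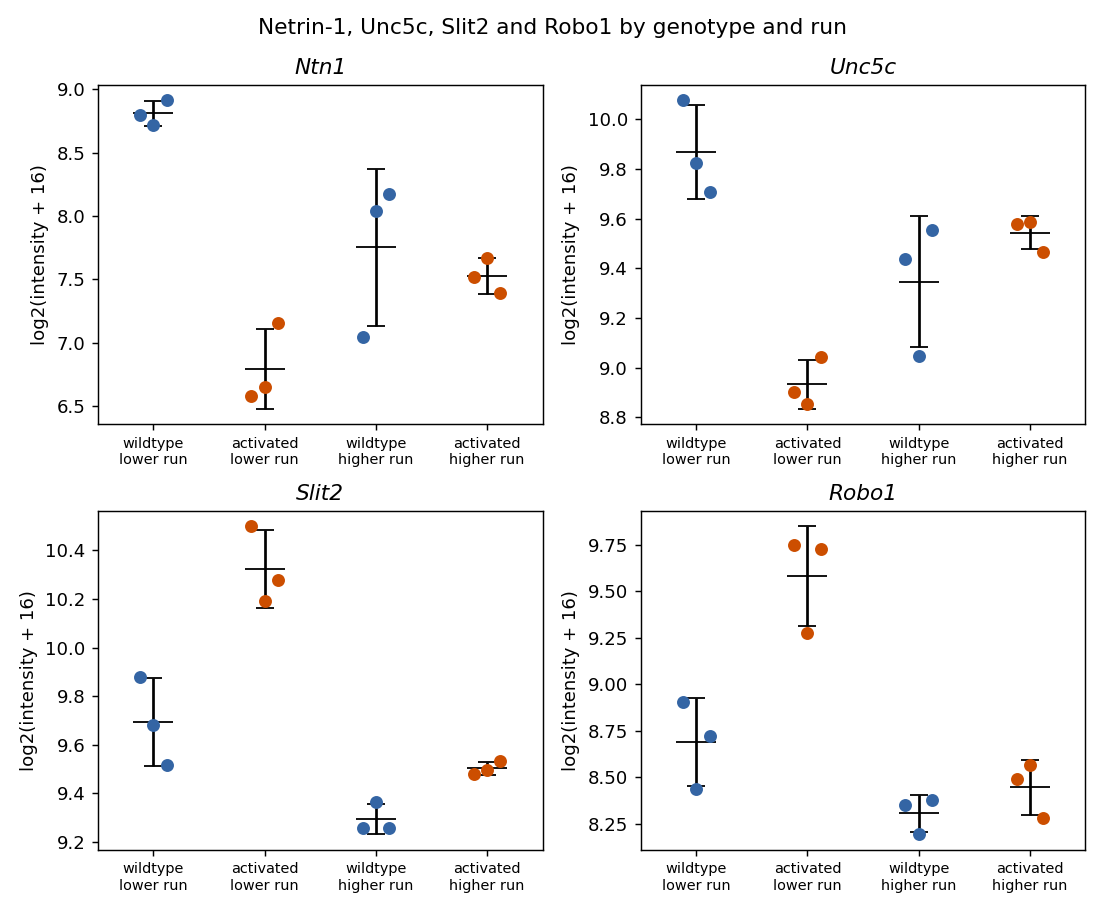
Level, log2(intensity + 16), of Ntn1, Unc5c, Slit2 and Robo1 by genotype and run, each point being 1 array, the horizontal line the mean of 3 arrays and the bars the SD. In the lower run Ntn1 and Unc5c are lower and Slit2 and Robo1 higher on all 3 activated arrays, and in the higher run the groups of Ntn1, Unc5c and Robo1 overlap.

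Slit2 and its receptor Robo1 lay on the high side in the activated arrays of the lower run. Slit2 had levels of 9.88, 9.68 and 9.52 in wildtype 1 to 3 and 10.50, 10.19 and 10.28 in activated 1 to 3. In the higher run it had 9.26, 9.36 and 9.26 in wildtype 4 to 6 and 9.48, 9.50 and 9.53 in activated 4 to 6. The groups lay apart in each run, in the same direction, for Slit2 alone among the members (1.79%), and for 1.26% of all genes. Activated 4 and 5 nevertheless lay below all of wildtype 1 to 3, and activated 6 lay above wildtype 3 alone. The difference of 0.63 in the lower run (SE 0.14, adjusted p = 0.124, limma) and that of 0.21 in the higher run (SE 0.10, adjusted p = 0.784, limma) did not pass the test.

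Robo1, a Slit receptor, had levels of 8.91, 8.44 and 8.72 in wildtype 1 to 3 and 9.75, 9.27 and 9.73 in activated 1 to 3. These groups lay apart, with a difference of 0.89 (SE 0.19) that did not pass the test (adjusted p = 0.0889, limma). Without activated 2 the value was 1.05 (adjusted p = 0.0300, limma). Without any 1 of the other arrays of the run it was 0.77 to 1.00 and did not pass (adjusted p from 0.183 to 0.415, limma). When the 4 groups were fitted together, which shares 1 estimate of the spread, both Robo1 (adjusted p = 0.0111) and Slit2 (adjusted p = 0.0133, limma) passed it in the lower run. Of the 15 alternatives for the lower run, Robo1 passed in 3 and Slit2 in 2. Robo1 levels in the higher run were 8.35, 8.19 and 8.38 in the wildtype and 8.49, 8.57 and 8.28 in the activated arrays, which overlapped.

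The other Slits and Robos, like Slit2 and Robo1, were not called between the genotypes. Slit3 had levels of 6.63, 6.46 and 6.67 in wildtype 1 to 3 and 5.57, 6.09 and 5.42 in activated 1 to 3, against 6.36, 6.65 and 6.87 and 6.66, 6.79 and 7.01 in the higher run. Its groups lay apart in the lower run alone, with a difference of -0.89 (SE 0.28, adjusted p = 0.381, limma). Slit1 was under the control signal on 10 of 12 arrays. Robo3 had -0.36 in the lower and 0.30 in the higher run, and Robo4, an endothelial Robo, had 0.18 and 0.42.

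Of the 56 members 10 (17.9%) had groups that did not overlap in the lower run, against 12.5% of all genes. They were Ntn1, Unc5c, Unc5b, Slit2, Slit3, Robo1, Robo3, Plxna3, Plxnb3 and Sema4g. They numbered 6 in the higher run (10.7%), against 11.3% of all genes, and were Slit1, Slit2, Plxnc1, Plxnd1, Sema4a and Epha8. All arrays of that run lay under the control signal for Slit1 and Epha8.

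No semaphorin was called for genotype. Over the 12 arrays the 12 membrane semaphorins had differences from -0.31 to 0.34 with a median of 0.00, and 6 were positive. None of them, nor any of the 5 secreted semaphorins, reached an unadjusted p of 0.05. Sema4a, which binds plexins and immune receptors, had levels of 6.53 to 6.89 in wildtype 4 to 6 and 5.78 to 6.27 in activated 4 to 6. The groups lay apart with a difference of -0.70 (SE 0.21, adjusted p = 0.647, limma), and they overlapped in the lower run. Sema5a had 0.71 (SE 0.27, adjusted p = 0.537, limma) in the lower and -0.03 in the higher run. Its lowest, median and highest levels were 7.05, 7.75 and 8.25 in the wildtype and 7.61, 7.99 and 8.41 in the activated kidneys. Sema3e, the ligand of Plxnd1, had 5.15, 5.78 and 6.17 against 5.43, 5.56 and 6.08. Sema3b, a secreted semaphorin, had 4.71, 5.29 and 6.03 against 4.11, 4.85 and 5.85 and was above the control signal on 4 arrays. The genotypes overlapped for these 3 genes.

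Plxnd1, a plexin of endothelial cells, had similar genotype differences in both runs. In the wildtype kidneys its lowest, median and highest levels were 7.13, 7.59 and 8.27, and in the activated kidneys 7.98, 8.14 and 8.30. Wildtype 3 (8.27) was the only wildtype array within the activated range. The difference was 0.43 in the lower and 0.56 in the higher run, and 0.49 over the 12 arrays (SE 0.16, adjusted p = 0.592, limma). The 12 endothelial markers had mean levels of 6.75 in the wildtype and 7.04 in the activated arrays of the lower run and 6.47 and 6.87 in the higher run. Over the 12 arrays 11 of these markers had positive differences and none was called by limma, with 2 at an unadjusted p below 0.05. Their part in the Plxnd1 value was not tested.

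The neuropilins and the remaining plexins held no gene called for genotype. Nrp1, a receptor for class 3 semaphorins and for VEGF-A, had a lowest, median and highest level of 11.20, 11.40 and 11.58 in the wildtype and 10.99, 11.42 and 11.82 in the activated kidneys. Nrp2 had 6.18, 6.60 and 6.99 against 6.04, 6.90 and 7.08. Plxna3, a receptor that works with neuropilins, had -0.63 in the lower run (SE 0.23, adjusted p = 0.498, limma) and -0.11 in the higher run. Plxnc1, the receptor of the membrane semaphorin Sema7a, had 6.73, 6.94 and 7.22 against 6.29, 6.98 and 7.28, with differences of -0.53 in the lower and 0.27 in the higher run and groups apart in the latter.

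Ephrins and Eph kinases, which make up 19 of the 56 members, held no gene called for genotype. In the lower run 7 of the 8 EphA receptors had positive differences (6 of 8 with the arrays centred on their medians). In the higher run 5 of 8 did, where all genes had 45.6% (lower run) and 49.8% (higher run). Only 2 of the 8 were above the control signal on all 12 arrays, with 5 above it on some and 1 on none. The range in the lower run, -0.11 to 0.68 with a median of 0.31, includes members under that signal and has no reliable size. The 3 EphB receptors were positive in the lower run (0.17 to 0.45), with Ephb3 the highest and Ephb4, a venous endothelial receptor, at 0.32. The 5 ephrin-As ranged from -0.31 to 0.41 in the lower run and the 3 ephrin-Bs from -0.55 to 0.21. Efnb2, an arterial ephrin, had 0.21 and 0.20 in the lower and higher run, less than its spread of 0.32 (SD, n = 6) over the wildtype arrays. Epha8 had levels of 4.42, 4.14 and 4.78 in wildtype 4 to 6 and 5.45, 4.82 and 5.12 in activated 4 to 6. All 6 lie below the control signal, so no size is given for its difference (adjusted p = 0.774, limma). Of the remaining members, Efna2 had a lowest, median and highest level of 5.12, 5.44 and 5.78 in the wildtype and 5.64, 5.70 and 6.17 in the activated kidneys. Efnb3 had 5.87, 6.35 and 6.53 against 5.11, 6.17 and 6.49, and Epha4 had 5.51, 5.87 and 6.37 against 4.58, 5.97 and 6.66. The genotypes overlapped for each of these 3 genes. Ephb3 had 6.26, 6.63 and 7.05 against 6.73, 7.01 and 7.45. Ephb6, an Eph receptor that lacks kinase activity, had 4.38, 5.22 and 5.43 against 4.30, 5.18 and 5.60 and was above the control signal on 1 array. Efna5, above it on none, had 4.11, 4.23 and 4.35 against 4.27, 4.34 and 5.01.

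Between the runs, 5 guidance genes changed in the activated kidneys. They were called as 2 higher and 3 lower in the higher run, where 345 of all genes (2.78%) were called. At an unadjusted p below 0.05 there were 10 (17.9%) against 14.5% of all genes. Robo1 fell by 1.14 from the lower to the higher run (SE 0.17, adjusted p = 0.0101), Epha7 by 1.00 (SE 0.19, adjusted p = 0.0306) and Slit2 by 0.82 (SE 0.12, adjusted p = 0.00954, limma). Unc5c rose by 0.61 (SE 0.13, adjusted p = 0.0437, limma). Plxnb3 was called higher (adjusted p = 0.0354, limma), from levels under the control signal.

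Epha7, an Eph kinase of the developing nervous system, had levels of 8.51, 8.23 and 8.60 in activated 1 to 3 and 7.65, 7.46 and 7.23 in activated 4 to 6. In the wildtype kidneys it had 8.27, 8.22 and 7.47 against 7.41, 7.42 and 7.37, a difference of -0.59 (adjusted p = 0.178, limma). Its 2 other probe sets, with mean levels of 5.14 and 5.25 under the control signal, had -0.69 and -0.26 between the runs in the activated kidneys. Plxnb3, a receptor for Sema5a, had 4.18, 4.23 and 4.39 in activated 1 to 3, below the control signal, and 5.68, 5.25 and 5.22 in activated 4 to 6. Only activated 4 lay above that signal, so no size is given. The fitted difference ran from 0.97 to 2.70 over the alternatives, the highest with a pseudocount of 1. A second Slit2 probe set, mean level 6.59, gave -0.72.

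These 5 calls rested on few arrays. None of the 5 genes was called when activated 1, activated 4 or activated 5 was left out, with the lowest adjusted p of the 5 at 0.0631, 0.0588 and 0.0537 (limma). Without activated 3 or activated 6, Robo1 and Slit2 remained (adjusted p from 0.0359 to 0.0481), and without activated 2 Plxnb3 was lost (adjusted p = 0.0708, limma). The differences kept their direction each time.

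In the wildtype kidneys no member was called between the runs by limma, where 632 genes (5.1%) were. At an unadjusted p below 0.05 there were 16 members (28.6%, 7 higher and 9 lower) against 19.7% of all genes. Ntn1 was lower in the higher run by -1.06 on the log2 scale (SE 0.27, adjusted p = 0.0597), Unc5c by -0.52 (adjusted p = 0.0941) and Slit2 by -0.40 (adjusted p = 0.091, limma). Slit1 lay above the control signal on wildtype 2 and activated 2 alone, so no size is given (adjusted p = 0.0635, limma). Sema4b had 0.68 (adjusted p = 0.087) and Sema4a 0.73 (adjusted p = 0.104, limma). Slit2 and Robo1 thus had negative differences in both genotypes, -0.40 and -0.82 for Slit2 and -0.38 and -1.14 for Robo1, whereas Ntn1 and Unc5c had negative differences in the wildtype and positive ones in the activated kidneys. These comparisons share arrays with the genotype comparisons, and the run differences stand beside the erythroid and macrophage marker differences given above. Their part was not tested.

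Efna4, an ephrin-A ligand, varied over more than 3 log2 units without regard to genotype or run. Its levels were 4.92, 8.31, 5.91, 5.75, 8.15 and 4.97 in wildtype 1 to 6 and 6.11, 8.16, 4.49, 5.23, 4.72 and 8.07 in activated 1 to 6. The 4 high arrays, wildtype 2 and 5 and activated 2 and 6, are the 4 with the highest 5′ to 3′ control ratio. Sema3f, a secreted semaphorin that binds Nrp2, was also highest on these 4 arrays, at 6.80 to 7.40 against 5.24 to 6.45 on the others. No other member lay wholly above or wholly below the other arrays on these 4. Counted in either direction, 381 genes of the array (3.07%) and 2 members (3.57%) lay apart in this way. The genes that were higher were not counted alone. Efna4 and Sema3f were singled out after their values were seen, and the ratio itself sets no clear limit at 4 arrays. Efna4 lies beside Efna3 and Efna1 on chromosome 3, and these neighbours ranged from 6.15 to 7.53 (Efna3) and from 6.34 to 7.03 (Efna1). The 3 Y-linked genes measured also differed on 3 of these 4 arrays, with mean levels of 4.30, 4.48 and 4.24 on wildtype 2, wildtype 5 and activated 6 and of at least 7.38 on the others, activated 2 included. The part of RNA quality or of the embryos' sex in these values was not tested.

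**Figure D4:**
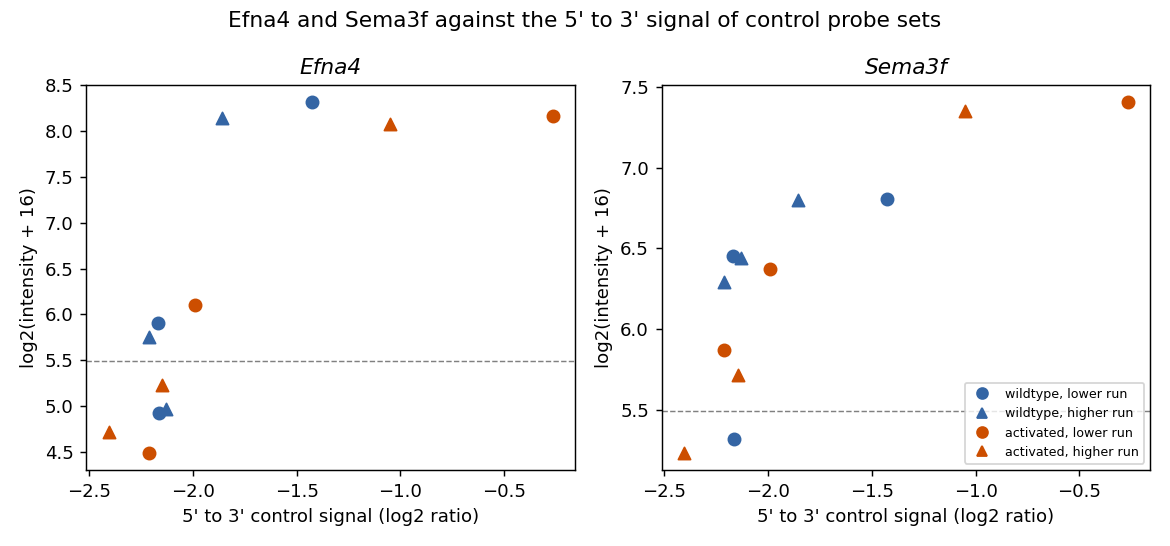
Level, log2(intensity + 16), of Efna4 and Sema3f (y axis) against the log2 5′ to 3′ ratio of the control transcripts (x axis) on the 12 arrays, each point being 1 array. The 4 arrays with the highest ratio, from -1.86 to -0.26, hold the 4 highest levels of both genes.

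Probe choice bears on part of the list. The 56 members had 95 probe sets, with 25 members having more than 1. Of the 39 probe sets not chosen, 24 had the same sign as the chosen one over the 12 arrays. The number was 25 in each run and 24 for the change between runs. A mean level above the control signal was found for 11 of the 39. Of these, 10 had the same sign over the 12 arrays, 9 in the lower run, 9 in the higher run and 8 for the change between runs.

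A few other genes of the same pathways were called. Of 75 co-receptors and effectors listed by name, with earlier results of these data known, 62 were measured. Over the 12 arrays none was called by limma and 31 of 62 were positive. An unadjusted p below 0.05 was found for 6 (9.68%), against 6.15% of all genes. With the run term Dpysl3, a mediator of the semaphorin response, rose by 0.94 (SE 0.16, adjusted p = 0.0415, limma). It was the only one called (1.61% of the list), against 0.105% of all genes. In the lower run Pdzrn3, a PDZ-domain ubiquitin ligase, rose by 1.07 (adjusted p = 0.0162) and Cap1, an actin-binding protein associated with adenylyl cyclase, fell by 1.61 (adjusted p = 0.0218, limma), and 9 of 62 (14.5%) had an unadjusted p below 0.05, against 7.07% of all genes. The 2 called genes are 3.23% of the list, against 0.597% of all genes. None was called by limma in the higher run and 3 (4.84%) had an unadjusted p below 0.05, against 6.35% of all genes. Cap1 was also the only one called for the change between runs, at 1.66 (adjusted p = 0.0278, limma), or 1.61% against 0.331% of all genes. Between the runs Rras2 and Tyrobp rose in the wildtype kidneys and Cap1 and Tyrobp in the activated kidneys, and Ngef fell by 1.90 in the activated kidneys (adjusted p = 0.0187, limma). These are 3.23% (wildtype) and 4.84% (activated) of the list, against 5.1% and 2.78% of all genes. Macrophage markers also rose between the runs, with median differences of 0.88 (wildtype) and 0.89 (activated). Their part in the Tyrobp values was not tested.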

How the data were processed

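A total of 12 Affymetrix 3′ arrays (6 wildtype, 6 activated) were analysed from the authors' table of one intensity per probe set and array, deposited as linear values from 0.0693 to 23037.5. The trimmed mean of each array was 248 or 249, so the arrays had been scaled alike. The sources used here do not give the summarisation software, and the labels name a reverse transcription and labelling kit only. Of 22690 probe sets 20380 had 1 gene symbol in the platform annotation, 691 had several, 1555 had none and 64 were controls. Here, control probe sets were left out, log2(intensity + 16) was taken and these values were quantile-normalised. Where a gene had several probe sets, the one brightest on average was kept (12393 genes). Tests used limma 3.58.1 (lmFit, eBayes with a variance trend) in R 4.3.3, with Benjamini-Hochberg adjustment over all genes and a threshold of 0.05. The script was tested on simulated data.

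The members and gene lists were chosen with earlier results of these data known. Levels, by array or as lowest, median and highest, were given for members called in any of 7 comparisons and for those with the smallest p over 12 arrays or between runs in each of the 12 families. Wildtype and activated arrays were tested over all arrays, with the run as a term, within each run and as a difference between runs. Replicate numbers follow accession order and pair nothing. Alternatives were deposited values without normalisation between arrays, median centring, a pseudocount of 1, averaged probe sets, a filter taking out the dimmest 40% of genes, no variance trend, robust variance, array weights, 1 fit of 4 groups, the 5′ to 3′ ratio and the Y-linked level as covariates, and each array left out. Promoter windows came from RefSeq (GRCm38.p6). Gene positions in its gene table (same build) served only for neighbouring genes and for where a window lies in its gene.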

Additional observations from a re-analysis of the deposited data

Results flagged for a closer look

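In the activated kidneys, Nrp2 was lower on 1 array than on the others. Its level was 6.035 on activated 2 and 6.778 to 7.076 on the other activated arrays. Of 48 groups of arrays examined for such a value this was the only one, which is no more than the about 1 in 20 that chance flags. Activated 2 is also the array with the highest 5′ to 3′ control ratio, and the part of this was not tested.

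The genotype difference of Unc5c changed between the runs by 1.132 on the log2 scale, by a test of the difference itself. Activated kidneys lay below wildtype in the lower run (-0.94) and above in the higher run (0.20), and the second probe set changed by 0.91. Stromal markers moved alongside, as given with the result, and their part was not tested.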

How the results depend on the processing

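The differences of the 24 members given with levels, where their unadjusted p was below 0.05, kept their direction under every alternative run. Over all 56 members the sign changed under at least 1 alternative for 17 members over the 12 arrays, 23 in the lower and 25 in the higher run, among differences of at most 0.21, 0.38 and 0.41 in size. The median over all genes stayed between -0.04 and 0.04 and crossed 0 for 5 comparisons. For the 12 arrays (3 genes called, no guidance gene), averaging the probe sets left 1 gene and dropping the variance trend 1. With the run term (13 genes), median centring left 8, averaged probe sets 8, no variance trend 1, and the 5′ to 3′ ratio as a covariate gave 52, with 0 guidance genes in each. In the lower run (74 genes, 2 members), no variance trend gave 39 genes and 1 member, array weights 186 and 4, and the fit of 4 groups 188 and 4. Median centring left 1 member and averaged probe sets 0. In the higher run (1 gene), median centring gave 2 genes, averaged probe sets 0, no variance trend 0, robust variance 3 and the fit of 4 groups 2. For the change between runs (41 genes, 1 member), median centring gave 18 genes and 0 members, no variance trend 24 and 0, averaged probe sets 0 members, array weights 88 genes and 2 members, and both robust variance and removal of the dimmest 40% of genes 2 members. Between runs in the wildtype kidneys (632 genes, 0 members), no variance trend gave 302 genes and 1 member, and removal of the dimmest genes, robust variance, array weights and the fit of 4 groups gave 1 member each. In the activated kidneys (345 genes, 5 members), no variance trend gave 197 genes and 2 members, array weights 805 genes, the fit of 4 groups 605 genes, and median centring and averaged probe sets 2 members each. Leaving out 1 array gave 0 to 4 genes over the 12 arrays and 4 to 20 genes with 0 to 1 members under the run term. It gave 30 to 87 genes and 1 to 3 members in the lower run, and 0 to 1 genes in the higher run. It gave 16 to 47 genes and 0 to 1 members for the change between runs, 227 to 470 genes and 0 to 1 members between wildtype runs, and 91 to 425 genes and 0 to 5 members between activated runs. Leaving out arrays lowers the number of samples, and for the other settings the cause was not tested. The values of those members with an unadjusted p below 0.05 stayed on the same side of the threshold in 792 of these refits. They lost it in 52 and gained it in 21. Most of these refits were of values not called in the first place. Of the called values, Ntn1 passed in 14 of 15 alternatives and Unc5c in 7 of 15 in the lower run. The change of Unc5c between runs passed in 9 of 20. Between the activated runs Robo1 passed in 12, Slit2 in 9, Epha7 in 8 and Unc5c in 7 of 15, and Plxnb3 in 6 of 14. No paired analysis was possible because the labels give no number shared between genotypes. Of the 56 members, 34 remained when the dimmest 40% of genes were removed.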
